A study of Mus musculus with 8 samples.

Results

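Rab GTPases and sorting nexins, the genes that direct membrane traffic through endosomes, lysosomes and the Golgi, were examined in mouse blood monocytes of the classical (Gr1hi) and nonclassical (Gr1lo) subsets, with and without phagocytosed latex beads. Members were all genes with a symbol of the form Rab or Snx, a number and, for Rab, at most 1 further letter, measured by a probe set that carried 1 gene symbol. Of 18193 genes measured, 89 were members, 59 of them Rab genes and 30 sorting nexins. Together they had 185 probe sets, 52 members had more than 1, and each gene was represented by its brightest probe set on average.

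The monocytes came from male C57BL/6 mice that received fluorescent latex beads of 1 µm into a vein and were sorted 4 days later. Each of 4 groups has 2 arrays, which the study's design text calls biological replicates: Gr1hi without beads, Gr1hi with beads, Gr1lo without beads and Gr1lo with beads. All 4 groups share strain and sex. The number of mice or cells per array is not given in the sources used here. The descriptions disagree on the use of clodronate liposomes, a reagent that kills phagocytes. The design text puts depletion 3 days before the beads and names no subset, while the treatment protocol applies it to the labelling of Gr1hi cells and not of Gr1lo cells. If the protocol holds, the subsets also differ in pretreatment, and that difference cannot be told apart from the subset.

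A Rab GTPase alternates between a GTP-bound form, which sits on 1 kind of membrane and recruits tethers, motors and kinases, and a GDP-bound form, which is extracted from it. Sorting nexins carry a PX domain that binds phosphoinositides, and those with a BAR domain also bend the membrane into tubules that return receptors from endosomes to the Golgi or the cell surface. In phagocytes both families act on the phagosome, which acquires early endosome, then late endosome and lysosome proteins as it matures.

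The 8 arrays had similar medians, and 8615 to 8865 genes per array exceeded a background level of 6.98, taken from genes of smell, taste and hair that blood monocytes are not known to use. The labels were checked first. Nr4a1, the transcription factor of nonclassical monocytes, differed by 2.21 log2 units, and Ccr2, the chemokine receptor of classical monocytes, by -0.94, both Gr1lo minus Gr1hi. The mean of 6 measured classical monocyte markers was 12.54 to 12.88 in Gr1hi cells, 10.96 and 10.12 on arrays 1 and 2 of Gr1lo cells without beads, and 8.26 and 8.12 in Gr1lo cells with beads. That of 7 neutrophil markers was 8.09 to 9.19 in Gr1hi and 6.28 to 6.81 in Gr1lo cells, and that of 7 tissue macrophage markers was 9.05 and 7.16 on the 2 Gr1lo arrays without beads. The 2 Gr1lo arrays without beads thus differed from each other, array 1 being higher for both the classical and the macrophage markers. Spiked-in poly-A control transcripts read 1.53 log2 units higher with beads than without in Gr1hi cells and 1.31 higher in Gr1lo cells, and averaged over bead state they were 0.81 higher in Gr1lo than in Gr1hi cells. The hybridization controls were 0.20 higher with beads in Gr1hi cells, 1.07 higher with beads in Gr1lo cells and 0.25 higher in Gr1lo than in Gr1hi cells. The part of these controls in the subset and bead differences was not tested.

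Most members were detected. By the mean over 8 arrays 65 of 89 members (73%) exceeded the background level, against 48.3% of all genes, with 38 of 59 Rab genes and 27 of 30 sorting nexins among them. The 19 members below background in all 4 groups included Rabs known from neurons, epithelia or secretory cells, such as Rab3c, Rab17, Rab25, Rab26 and Rab6b, and the sorting nexins Snx31 and Snx32. Each array had 62 to 68 members above background. The 4 members of the Golgi to plasma membrane class, the 4 recycling SNX-BAR genes, the 3 SNX-BAR genes with an SH3 domain and the 4 with an RGS or PXA domain were all above background, whereas 6 of 11 members of secretory granules and lysosome-related organelles and 9 of 15 of the endoplasmic reticulum and Golgi were. The lowest 8-array mean was that of Rab30 at 3.61 and the highest that of Rab1a, which starts transport from the endoplasmic reticulum to the Golgi, at 12.67. Such levels depend on each probe set's own binding, so they order no transcripts by amount.

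**Figure D1:**
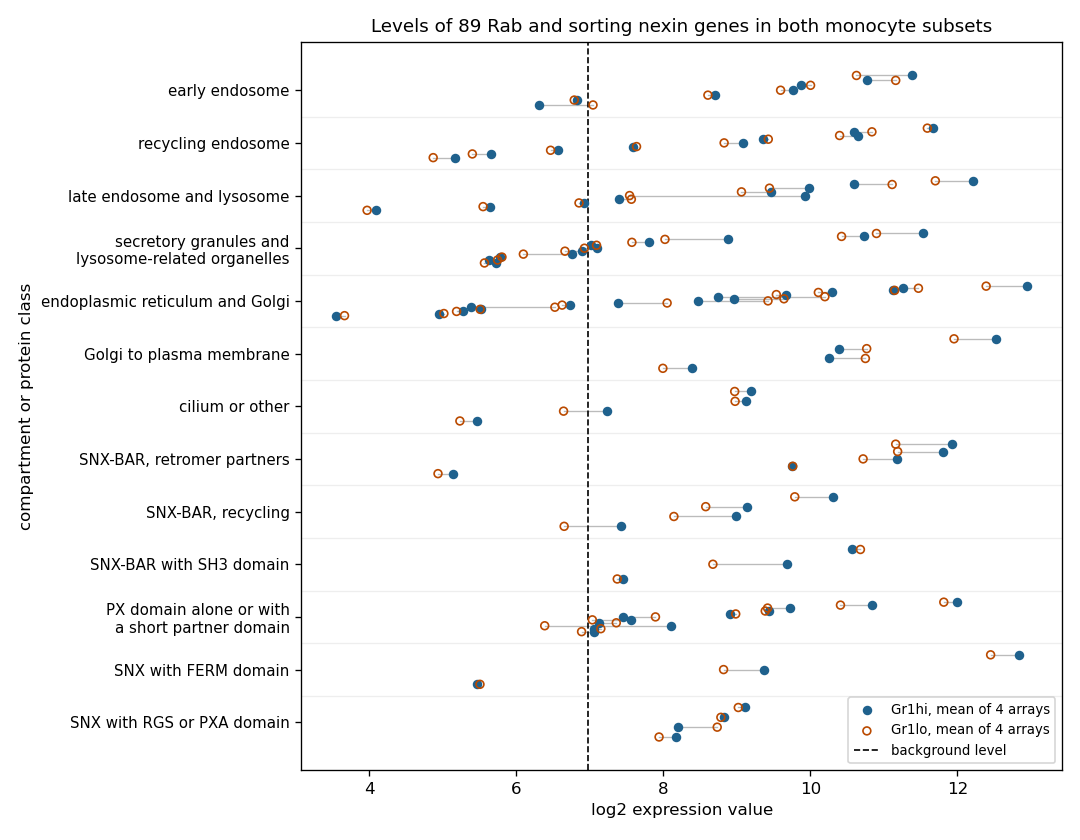
Mean log2 expression value of each of the 89 members in Gr1hi cells (filled, 4 arrays) and Gr1lo cells (open, 4 arrays), by compartment or protein class, with a line joining both values of a member and a dashed line at the background level of 6.98. The 4 recycling SNX-BAR members and the 4 RGS or PXA members all have an 8-array mean to the right of the dashed line, and the longest joining line is that of Rab7b in the late endosome and lysosome class.

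The subset comparison asks how these genes differ between classical and nonclassical monocytes. Averaged over bead state, 49 of 89 members were called different at an adjusted p under 0.05 (limma, Benjamini-Hochberg over all genes), 15 higher and 34 lower in Gr1lo cells. That is 55.1% of members, against 35.6% of all genes. Since more members than other genes were expressed, the closer comparison is among genes above background, where 42 of 65 members (64.6%) and 56.2% of genes were called. The members' median difference was -0.14 log2 units, against -0.05 for all genes, and for those above background -0.17 against -0.04. Of the called members 69.4% were lower in Gr1lo cells, against 58.6% of called genes overall; when each array was centred on its median the shares were 59.1% of called members and 42.6% of called genes. In bulk samples such as these, fewer cells of a type and less RNA per cell cannot be told apart.

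Most called sorting nexins were lower in Gr1lo cells, and the Rab genes went both ways. Of 30 sorting nexins 15 were called lower and 3 higher in Gr1lo cells, and of 59 Rab genes 19 were called lower and 12 higher; over all genes 20.9% were called lower and 14.8% higher. The difference between the families was not tested. The same comparison called 38 members (42.7%) in cells without beads, where 23.6% of all genes were called, and 39 members (43.8%) in cells with beads, where 26.5% were. Among genes above background the shares were closer. They were 52.3% of members and 39.1% of genes without beads, and 53.8% of members and 44.8% of genes with beads. In all 36 members were called in both bead states, each in the same direction. The share of all genes called in both was not computed, so this count has no background beside it. Within each bead state, some of the calls did not hold in every alternative. On 44 of the 49 called members every array of the higher subset exceeded every array of the lower one, and the exceptions were Rab17, Rab24, Rab27b, Rab38 and Rab40b. Over all 89 members, called or not, 46 (51.7%) were separated in this way, against 33.6% of all genes, neither share being limited to genes above background.

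**Figure D2:**
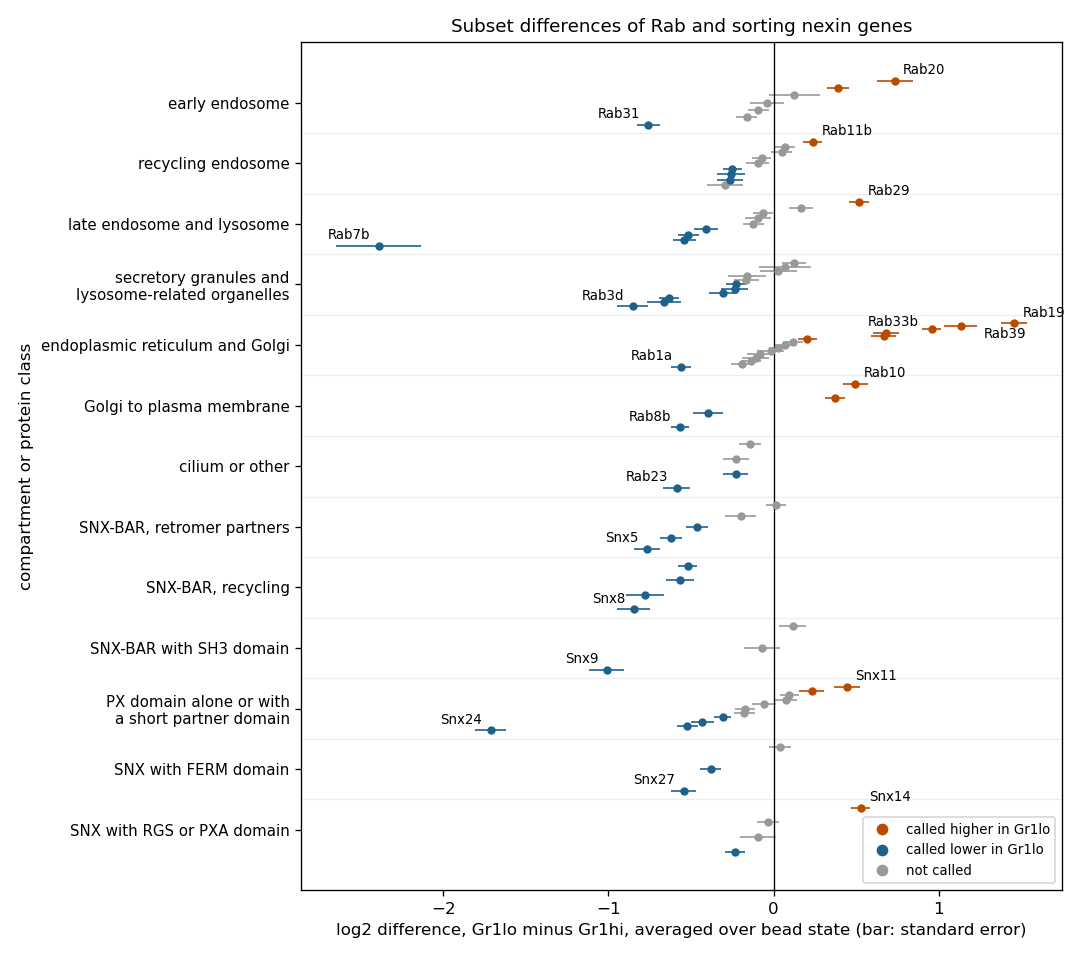
Log2 difference between subsets (Gr1lo minus Gr1hi, averaged over bead state) for each of the 89 members, with its moderated standard error, by compartment or protein class. Members called lower in Gr1lo (blue, 34) take the left side in every SNX-BAR class, while 6 of the 15 members called higher (orange) belong to the endoplasmic reticulum and Golgi class; grey members were not called.

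Upstream sequence was examined for the members that differed between subsets. RefSeq windows of the 250 bases before the transcription start (GRCm38.p6) were at hand for 69 members, some with several starts, 86 windows in all. On both strands they were searched for the E-box CACGTG, which basic helix-loop-helix factors of lysosomal genes bind, the NR4A element AAAGGTCA, the PU.1 site GAGGAAGT, the C/EBP palindrome TTGCGCAA and the interferon regulatory factor pattern, 2 runs of GAAA with 2 bases between them. The E-box was present in the windows of 8 of 69 members (11.6%) and of 6.86% of all genes with windows, the PU.1 site in 2 members (2.9%) and 2.79% of genes, and the interferon pattern in 2 members (2.9%) and 3.46% of genes. The NR4A element and the C/EBP palindrome were in no member window, and in 1.55% and 0.185% of genes. Among the members called higher in Gr1lo cells 2 of 13 with a window held an E-box, and among those called lower 3 of 26. Shown here, 5′ to 3′ on the gene's strand with the match in capitals, are the 3 members called higher and the 3 called lower with the largest subset differences among those that hold a match.
Rab19, chr6:39381103-39381352, plus strand: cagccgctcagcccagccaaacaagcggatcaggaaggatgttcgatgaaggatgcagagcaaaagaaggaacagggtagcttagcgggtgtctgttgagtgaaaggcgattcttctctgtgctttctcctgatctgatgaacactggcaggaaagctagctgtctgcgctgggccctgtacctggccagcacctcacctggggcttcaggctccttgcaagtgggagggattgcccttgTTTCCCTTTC
Rab20, chr8:11478641-11478890, minus strand: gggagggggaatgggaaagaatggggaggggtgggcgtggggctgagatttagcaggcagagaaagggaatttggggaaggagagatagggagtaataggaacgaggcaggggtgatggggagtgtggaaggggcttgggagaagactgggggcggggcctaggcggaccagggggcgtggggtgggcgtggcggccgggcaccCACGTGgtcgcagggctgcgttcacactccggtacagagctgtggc
Rab2b, chr14:52279396-52279645, minus strand: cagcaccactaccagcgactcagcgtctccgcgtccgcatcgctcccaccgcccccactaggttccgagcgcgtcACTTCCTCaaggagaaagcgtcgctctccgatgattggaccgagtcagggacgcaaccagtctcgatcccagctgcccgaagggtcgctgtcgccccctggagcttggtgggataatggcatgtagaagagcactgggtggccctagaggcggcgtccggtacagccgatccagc
Snx8, chr5:140389309-140389558, minus strand: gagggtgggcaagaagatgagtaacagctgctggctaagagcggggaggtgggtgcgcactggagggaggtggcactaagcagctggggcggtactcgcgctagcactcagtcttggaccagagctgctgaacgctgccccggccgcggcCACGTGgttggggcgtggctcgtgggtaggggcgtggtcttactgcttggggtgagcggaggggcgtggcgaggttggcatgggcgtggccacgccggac
Snx5, chr2:144270573-144270822, minus strand: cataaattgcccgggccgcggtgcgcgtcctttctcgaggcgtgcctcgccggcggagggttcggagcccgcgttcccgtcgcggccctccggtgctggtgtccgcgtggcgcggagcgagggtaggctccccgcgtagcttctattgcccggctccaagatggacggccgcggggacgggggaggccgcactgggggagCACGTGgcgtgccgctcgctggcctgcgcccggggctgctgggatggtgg
Rab32, chr10:10558208-10558457, minus strand: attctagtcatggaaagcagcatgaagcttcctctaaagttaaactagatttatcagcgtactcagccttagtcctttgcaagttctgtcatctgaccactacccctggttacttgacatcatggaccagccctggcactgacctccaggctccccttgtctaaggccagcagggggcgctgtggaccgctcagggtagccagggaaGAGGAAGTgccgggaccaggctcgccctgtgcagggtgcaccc
The capitals mark the interferon pattern read on the opposite strand in Rab19, the E-box in Rab20, Snx8 and Snx5, and the PU.1 site in Rab2b (opposite strand) and Rab32. A match describes these letters and is no evidence of binding.

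Among the early endosome Rabs, which drive fusion of incoming vesicles, 3 of 7 were called. This share of 42.9% is near the 35.6% of all genes called. Rab20, which takes part in phagosome maturation, read 6.14 and 5.97 on the Gr1hi arrays without beads, 6.71 and 6.43 on those with beads, 7.13 and 6.82 on the Gr1lo arrays without beads and 7.28 and 6.96 on those with beads. All Gr1lo arrays were higher than all Gr1hi arrays, but the Gr1hi values were below background, so the difference of 0.74 ± 0.11 (SE, adjusted p = 0.000825) compares a level near background with one below it. Rab5a, a master organizer of the early endosome, was higher in Gr1lo cells by 0.39 ± 0.07 (adjusted p = 0.0016). Rab31, a relative of Rab22a that moves cargo between the trans-Golgi and endosomes, was lower by 0.76 ± 0.07 (adjusted p = 5.34e-05): it read 11.28 to 11.47 on the 4 Gr1hi arrays and 10.53 to 10.77 on the 4 Gr1lo arrays. Rab22a at -0.09 and the integrin-trafficking Rab21 at -0.16 were not called, and Rab5b lay below background in all groups.

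The recycling Rabs, which return receptors to the surface, moved little. Of 9 members 1 was called higher and 3 lower, and these 4 differences lay between -0.26 and 0.24. The called share of 44.4% is near the 35.6% of all genes. Rab11a and Rab11b, paralogs on the recycling endosome, were called in opposite directions, Rab11a at -0.25 ± 0.06 and Rab11b at 0.24 ± 0.06; Rab11a was not called after median centring (-0.17, adjusted p = 0.0558) and Rab11b was not called when all probe sets of a gene were averaged (0.14, adjusted p = 0.139). Rab35, of the plasma membrane recycling route, was called at -0.26 ± 0.08, and not without array 1 of either Gr1hi group nor array 2 of either Gr1lo group (adjusted p = 0.0829 to 0.113). Rab17 was called but lay below background. Rab14 at -0.07 and Rab4b at 0.07 were not called.

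The late endosome and lysosome class held the member with the largest subset difference, Rab7b, which governs transport from late endosomes to the trans-Golgi and, in macrophages, dampens Toll-like receptor signalling. It read 9.69 and 9.83 on the Gr1hi arrays without beads, 10.03 and 10.19 with beads, 8.44 and 7.07 on the Gr1lo arrays without beads and 7.58 and 7.08 with beads. Every Gr1hi array was higher than every Gr1lo array, and 1 Gr1lo array without beads stood 1.37 log2 units above the other. The difference was -2.39 ± 0.26 (adjusted p = 0.000133), and it ranked 46th from the bottom of 18193 genes. In cells without beads it was 4.01-fold lower in Gr1lo cells and in cells with beads 6.87-fold lower. These sizes are not firm: without beads the difference of -2.00 became -1.32 or -2.69 when 1 of the Gr1lo arrays was left out, and with beads it was -1.71 when all probe sets of the gene were averaged. The other Rab7b probe set above background differed by -1.58. Array 1 of the Gr1lo group without beads, which was high for Rab7b, was also the higher of the pair for the classical and macrophage marker means given above, and the part of these cells in the result was not tested.

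Rab7 itself, which brings late endosomes to fusion with lysosomes, was lower in Gr1lo cells by 0.51 ± 0.06 (adjusted p = 0.000282), and its other probe set above background differed by -0.55. Rab9, which returns mannose 6-phosphate receptors to the Golgi, was lower by 0.54 ± 0.07 (adjusted p = 0.000335), and Rab24, an atypical Rab linked to autophagy, by 0.41 ± 0.07. In the other direction, Rab29, which recruits the kinase Lrrk2 to stressed lysosomes, was higher by 0.52 ± 0.06 (adjusted p = 0.000179); it read 10.57 to 10.63 on the 4 Gr1hi arrays and 11.03 to 11.15 on the 4 Gr1lo arrays. Rab12 differed by 0.16 and was not called. Rab9b, Rab34 and Rab36 were below background.

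In the class of secretory granules and lysosome-related organelles all 6 called members of 11 were lower in Gr1lo cells. That is 54.5% of the class, against 20.9% of all genes called lower. Within each bead state 3 of the 11 were called (27.3%), against 23.6% of all genes without and 26.5% with beads. The averaged calls of Rab3a, Rab27b and Rab38 did not hold in every alternative, and Rab27b had an 8-array mean below background. Rab3d, of regulated exocytosis, read 9.21 and 8.98 in bead-free Gr1hi cells, 8.67 and 8.64 with beads, 8.25 and 7.88 in Gr1lo cells without beads and 7.95 and 8.02 with beads. The groups of the subsets did not overlap, and the difference was -0.85 ± 0.09 (adjusted p = 0.000137); the 2 other Rab3d probe sets above background differed by -1.10 and -0.87. Rab32, which equips lysosome-related organelles, was lower by 0.63 ± 0.06 (adjusted p = 6.89e-05), with 11.44 to 11.63 on the Gr1hi and 10.75 to 10.99 on the Gr1lo arrays. Its close paralog Rab38 differed by -0.24 with an adjusted p of 0.0494, and was not called without any 1 of 6 arrays (adjusted p = 0.0805 to 0.163). Rab44, a large Rab with EF hands, was lower by 0.66 ± 0.10, but exceeded background only in Gr1hi cells without beads. Rab27a, which docks granules at the plasma membrane, differed by 0.07 ± 0.16. The neutrophil markers were higher in Gr1hi cells as well, by group as given above; 1 of the 7 was above background on all arrays and Cxcr2 was below it on all, and their part in the granule Rab differences was not tested.

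The endoplasmic reticulum and Golgi class ran the other way, with 6 members called higher and 1 lower of 15. These are 40% and 6.67% of the class, against 14.8% and 20.9% of all genes. The 6 include Rab39 and Rab2a, whose limits are given below. Rab19, a Rab of the Golgi and apical membranes, read 8.73 and 8.80 in bead-free Gr1hi cells, 8.80 and 8.63 with beads, 10.11 and 10.37 in Gr1lo cells without beads, and 10.11 and 10.21 in those with beads. Every Gr1lo array was higher than every Gr1hi array, and the difference was 1.46 ± 0.08 (adjusted p = 3.23e-06), the highest of any member. Rab33b, which binds an autophagy factor at the Golgi, read 8.63 and 8.64 in bead-free Gr1hi cells, 8.27 and 8.32 with beads, 9.50 and 9.54 in Gr1lo cells without beads and 9.38 and 9.28 with beads. It was higher in Gr1lo cells by 0.96 ± 0.06 (adjusted p = 5.36e-06), again with no overlap.

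Rab43, a Golgi Rab, was higher by 0.68 ± 0.08 (adjusted p = 0.000196) and Rab2b, which acts on Golgi structure and autophagy, by 0.67 ± 0.07 (adjusted p = 0.000156). Rab39 was called at 1.13 ± 0.10, but it read 5.23 to 5.71 in Gr1hi and 6.37 to 6.86 in Gr1lo cells, all below background. Rab2a was called at 0.20 ± 0.06 by its highest probe set, whereas its other probe sets above background differed by -0.12, -0.03 and -0.09, so the probe sets disagree on its direction. Rab1a was the member called lower, by 0.56 ± 0.06 (adjusted p = 0.000137), with 12.84 to 13.01 on Gr1hi and 12.21 to 12.52 on Gr1lo arrays; of its other probe sets 1 differed by -0.74 and 1, close to background, by 0.18. Rab18, of lipid droplets, at 0.03, Rab1b at -0.14 and Rab6a at -0.19 were not called.

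**Figure D3:**
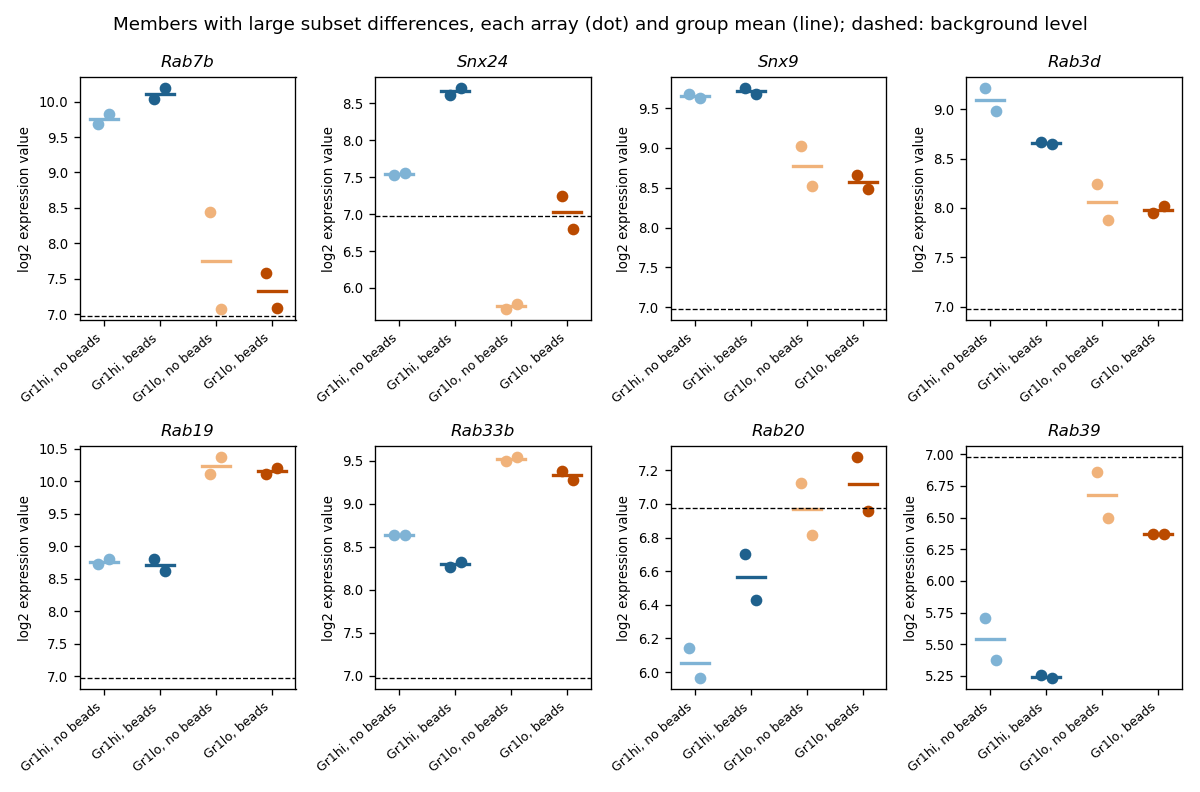
Log2 expression value on each array (dots) and group mean (lines) for 8 members with large subset differences; the dashed line is the background level and each panel has its own axis. In the upper row the Gr1hi values of Rab7b, Snx24, Snx9 and Rab3d exceed the Gr1lo values within each bead state, in the lower row the Gr1lo values of Rab19, Rab33b, Rab20 and Rab39 exceed all Gr1hi values, and Rab39 stays under the dashed line on all 8 arrays.

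Close relatives in surface delivery parted. Of the Golgi to plasma membrane Rabs, Rab10, which delivers receptors and transporters to the surface, was higher in Gr1lo cells by 0.50 ± 0.08 (adjusted p = 0.00104), and its 2 other probe sets differed by 0.56 and 0.50. Rab8a was higher by 0.37 ± 0.06 (adjusted p = 0.00132), while its paralog Rab8b was lower by 0.57 ± 0.06 (adjusted p = 8.1e-05). Rab8b read 12.50 to 12.53 on the Gr1hi and 11.87 to 12.05 on the Gr1lo arrays. Averaging all probe sets lessened the differences to 0.19 for Rab8a and -0.28 for Rab8b. Rab13, of cell junctions, was lower by 0.40 ± 0.09. In the remaining class Rab23, known from Hedgehog signalling, was lower by 0.59 ± 0.08 (adjusted p = 0.0005) and was above background only in Gr1hi cells, with a difference of -0.33 over all its probe sets.

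Of the SNX-BAR genes that work with retromer, the coat that retrieves receptors from endosomes, 3 of 5 were called lower in Gr1lo cells. That is 60% of a small class, against 20.9% of all genes. Snx5 read 11.67 and 11.82 in bead-free Gr1hi cells, 12.05 and 12.17 with beads, 11.08 and 10.91 in Gr1lo cells without beads and 11.44 and 11.21 with beads. Its subset difference was -0.77 ± 0.08 (adjusted p = 0.000113) with no overlap of subsets, and its 4 other probe sets differed by -0.48 to -1.19. Snx2 was lower by 0.62 ± 0.07 (adjusted p = 0.000119) and Snx1 by 0.46 ± 0.07 (adjusted p = 0.000646). Snx6, which can replace Snx5 in the dimer with Snx1 or Snx2, differed by 0.02 ± 0.06, reading 9.68 to 9.80 in Gr1hi and 9.68 to 9.85 in Gr1lo cells. Snx32 was below background.

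The 4 SNX-BAR genes of the recycling class were called lower in Gr1lo cells without exception. Of all genes 20.9% were called lower, and the class is small. Snx4, which returns the transferrin receptor, was lower by 0.52 ± 0.06 (adjusted p = 0.000122), its partners Snx7 and Snx30 by 0.78 ± 0.12 and 0.57 ± 0.09, and Snx8, of endosome to Golgi traffic, by 0.85 ± 0.10 (adjusted p = 0.00022). Snx7 exceeded background only in Gr1hi cells by its group means, and averaging all probe sets lessened Snx4 to -0.29. Of the 3 SNX-BAR genes with an SH3 domain, which act with dynamin at the plasma membrane, Snx9 read 9.68 and 9.63 in bead-free Gr1hi cells, 9.75 and 9.68 with beads, 9.03 and 8.53 in Gr1lo cells without beads and 8.66 and 8.49 with beads. It was lower in Gr1lo cells by 1.01 ± 0.11 (adjusted p = 0.000122), and its other probe set differed by -0.94. Its relatives Snx18 at 0.12 and Snx33 at -0.07 were not called.

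Of 11 sorting nexins with a PX domain alone or with a short partner domain, 4 were called lower and 2 higher in Gr1lo cells. These are 36.4% and 18.2% of the class, against 20.9% and 14.8% of all genes. Snx24, a small PX protein with no other known domain, was lower by 1.71 ± 0.09 (adjusted p = 3.42e-06); its array values are given with the bead results, where it also differed, and since Gr1lo cells without beads were below background its size is not exact. Snx22 was lower by 0.52 ± 0.06, Snx10, which is needed for endolysosome acidification in osteoclasts, by 0.43 ± 0.07, and Snx12 by 0.31 ± 0.05. Snx11, of endosome to lysosome traffic, was higher by 0.44 ± 0.08 and Snx16 by 0.23 ± 0.07. Snx3, the retromer adaptor for Wntless, at -0.18, and Snx20, which binds the selectin ligand PSGL-1, at -0.06 were not called.

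Both FERM sorting nexins above background were lower in Gr1lo cells, Snx27, which brings retromer to receptors with PDZ ligands, by 0.55 ± 0.08 (adjusted p = 0.000593) and Snx17, which recycles integrins, by 0.38 ± 0.06 (adjusted p = 0.00134). Snx17 read 12.69 to 12.998 on the Gr1hi arrays and 12.34 to 12.63 on the Gr1lo arrays. Among the sorting nexins with RGS or PXA domains Snx14, which links the endoplasmic reticulum to lipid droplets, was higher by 0.53 ± 0.06 (adjusted p = 0.000161). It read 8.13 to 8.26 in Gr1hi and 8.69 to 8.82 in Gr1lo cells. Snx25 was lower by 0.23 ± 0.06, and Snx13 at -0.09 and Snx19 at -0.04 were not called.

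Of the 49 calls, 38 held in every alternative that tested the gene, 12 higher and 26 lower. Rab20, Rab23, Rab39 and Rab44 are counted among the 38. Their means over all arrays were below background, so the fit limited to genes above background did not test them. The 11 calls that did not hold throughout were Rab2a, Rab3a, Rab11a, Rab11b, Rab17, Rab27b, Rab35, Rab38, Rab40b, Snx16 and Snx25. The widest of these differences was that of Rab3a, -0.31. Of the 49 called members, 18 had another probe set above background, 26 probe sets in all, of which 22 differed in the same direction and 4, of Rab1a and Rab2a, in the other.

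A list of 128 genes that activate, deliver, inactivate or serve these proteins was also examined, and 122 were measured. In the subset comparison 27 were called higher and 33 lower, 49.2% of the list, against 35.6% of all genes and 56.2% of genes above background. The clearest count was in retromer, the actin-regulating WASH complex and their cargo, with 9 lower and 1 higher of 15 in Gr1lo cells. The retromer core genes Vps29, Vps26a and Vps35 were lower by 0.81 ± 0.06, 0.73 ± 0.07 and 0.41 ± 0.06, and the WASH genes Washc5 and Washc1 by 0.97 ± 0.06 and 0.58 ± 0.06. Vps26b at -0.21 was not called. The cargo receptor Igf2r, the mannose 6-phosphate receptor of lysosomal enzymes, was higher by 1.01 ± 0.07 (adjusted p = 1.65e-05).

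Partners of the Rab classes described above moved in both directions. The recycling effector Rab11fip5 was lower in Gr1lo cells by 2.02 ± 0.21, the exchange factor Dennd4c by 1.71 ± 0.16, and the granule motor Myo5a by 1.15 ± 0.08. The Rab7 effectors Rilp and Fyco1, which tie late endosomes to dynein and kinesin, were higher by 0.92 ± 0.07 and 0.85 ± 0.08, whereas Rab7 itself was lower. Of the kinase and phosphatase that act on Rab8a, Rab10 and Rab29, Lrrk2 was higher by 0.96 ± 0.08 and Ppm1h by 1.00 ± 0.07. The early endosome effectors Rabep2 and Eea1 parted, at 0.81 ± 0.06 and -0.39 ± 0.10. Of 31 TBC proteins, which switch Rabs off, 8 were called higher, Tbc1d8 furthest at 1.98 ± 0.10, and 8 lower.

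The bead comparisons ask which members differ between cells that took up beads and cells that did not, within each subset. In Gr1hi cells 1 of 89 members was called, 1.12% against 0.247% of all genes, and in Gr1lo cells 1, against 0.225%. Averaged over both subsets 2 were called, 2.25% against 0.764%. At an unadjusted p under 0.05 there were 17 of 89 members in Gr1hi cells, 15 of 89 in Gr1lo cells and 20 of 89 in the average. Of all genes 9.93%, 13.2% and 15.3% passed in the same comparisons, a smaller share than of the members in each. These shares were not limited to genes above background. The medians of the members above background were -0.05, -0.08 and -0.06 log2 units, against -0.04, -0.03 and -0.04 for all genes above background. Bead-associated differences of the Rab and sorting nexin genes were thus few beside the subset differences.

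**Figure D4:**
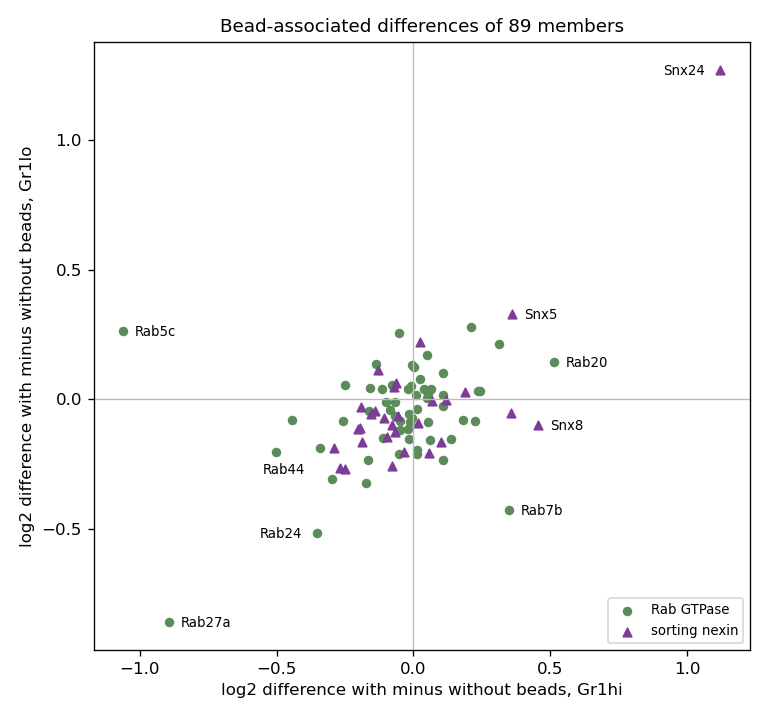
Log2 difference with minus without beads in Gr1hi cells (horizontal) and Gr1lo cells (vertical) for each of 89 members, circles for Rab genes and triangles for sorting nexins. Snx24 stands alone at 1.12 and 1.27, Rab27a lies at -0.89 and -0.86 and Rab5c at -1.06 and 0.26; only Snx24 was called within a subset.

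The called member was Snx24 in both subsets. In Gr1hi cells it read 7.53 and 7.56 without and 8.62 and 8.71 with beads, and in Gr1lo cells 5.72 and 5.79 without and 7.24 and 6.81 with beads. Within each subset both bead arrays were higher than both others; over all 8 arrays bead states overlap because the Gr1hi values start higher, and Gr1lo cells without beads were below background. Snx24 was 2.18-fold higher with beads in Gr1hi cells (1.12 ± 0.13 log2 units, adjusted p = 0.0259) and 1.27 ± 0.13 log2 units higher in Gr1lo cells (adjusted p = 0.00884). Since the level in Gr1lo cells without beads was below background, the size of the Gr1lo difference is not exact. Nor is that of the averaged difference, 1.20 ± 0.09 (adjusted p = 0.00166). In Gr1hi cells Snx24 ranked 15th of 18193 genes from the highest difference with beads. The averaged call held in every alternative. With 1 array left out, the Gr1hi call was lost for each of the 4 Gr1hi arrays (adjusted p = 0.125 to 0.223, at differences of 1.08 to 1.17), and the Gr1lo call without array 1 of Gr1lo cells without beads (1.24, adjusted p = 0.0507). The gene has 1 probe set here. The poly-A controls, given above, read higher with beads on the same arrays. The mean of the 7 tissue macrophage markers was 7.04 and 7.28 in Gr1hi cells without and 7.97 and 8.19 with beads, and 9.05 and 7.16 in Gr1lo cells without and 8.68 and 8.37 with beads; 4 of these markers were above background on all arrays and Vcam1 was below it on all. The part of either in this result was not tested.

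Rab24 was the other member called in the average. It read 9.53 and 9.76 in bead-free Gr1hi cells, 9.29 and 9.30 with beads, 9.40 and 9.25 in Gr1lo cells without beads and 8.79 and 8.82 with beads. Within each subset the bead arrays were lower, and the averaged difference was -0.44 ± 0.07 (adjusted p = 0.0415). The call was lost in 9 of 16 alternatives, among them the removal of any array other than array 2 of Gr1lo cells without beads (adjusted p = 0.0804 to 0.156), and the second probe set differed by -0.17. In Gr1lo cells the classical monocyte markers moved the same way, from means of 10.96 and 10.12 without to 8.26 and 8.12 with beads, and their part in the Rab24 difference was not tested.

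Several members came near the threshold without passing it. Rab27a read 7.42 and 7.53 in bead-free Gr1hi cells, 6.48 and 6.68 with beads, 7.95 and 7.10 in Gr1lo cells without beads and 6.65 and 6.68 with beads. The 4 bead arrays were below background and below all 4 others, a separation that 3.77% of all genes showed in either direction. The averaged difference was -0.88 ± 0.16 (adjusted p = 0.0572); it was called in 6 of 16 alternatives, with an adjusted p of 0.000322 without array 2 of Gr1lo cells without beads. Its 3 other probe sets, all below background, differed by 0.04, -0.40 and -0.82.

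Rab5c, the early endosome relative of Rab5a, was at 10.80 and 10.01 in bead-free Gr1hi cells, 9.26 and 9.44 with beads, 9.94 and 9.80 in Gr1lo cells without beads and 10.05 and 10.23 with beads. Gr1hi bead arrays were lower and Gr1lo bead arrays higher than their counterparts, with differences of -1.06 ± 0.22 (adjusted p = 0.139) and 0.26 (not called). The difference between these bead effects was 1.32 ± 0.31, with an adjusted p of 0.487. The pair of Gr1hi arrays without beads weighs on this: without array 2 the Gr1hi difference was -1.45 (adjusted p = 0.0361) and the difference between the effects 1.72 (adjusted p = 0.0479), whereas without array 1 of the same group they were -0.66 (adjusted p = 0.385) and 0.93 (adjusted p = 0.558). In cells with beads Rab5c was called higher in Gr1lo than in Gr1hi cells, by 0.79 ± 0.22 (adjusted p = 0.0281). That call was lost in 5 of 16 alternatives, among them the removal of each array with beads. Over the alternatives the difference was 0.695 to 0.88. In cells without beads Rab5c differed by -0.54 (adjusted p = 0.119).

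**Figure D5:**
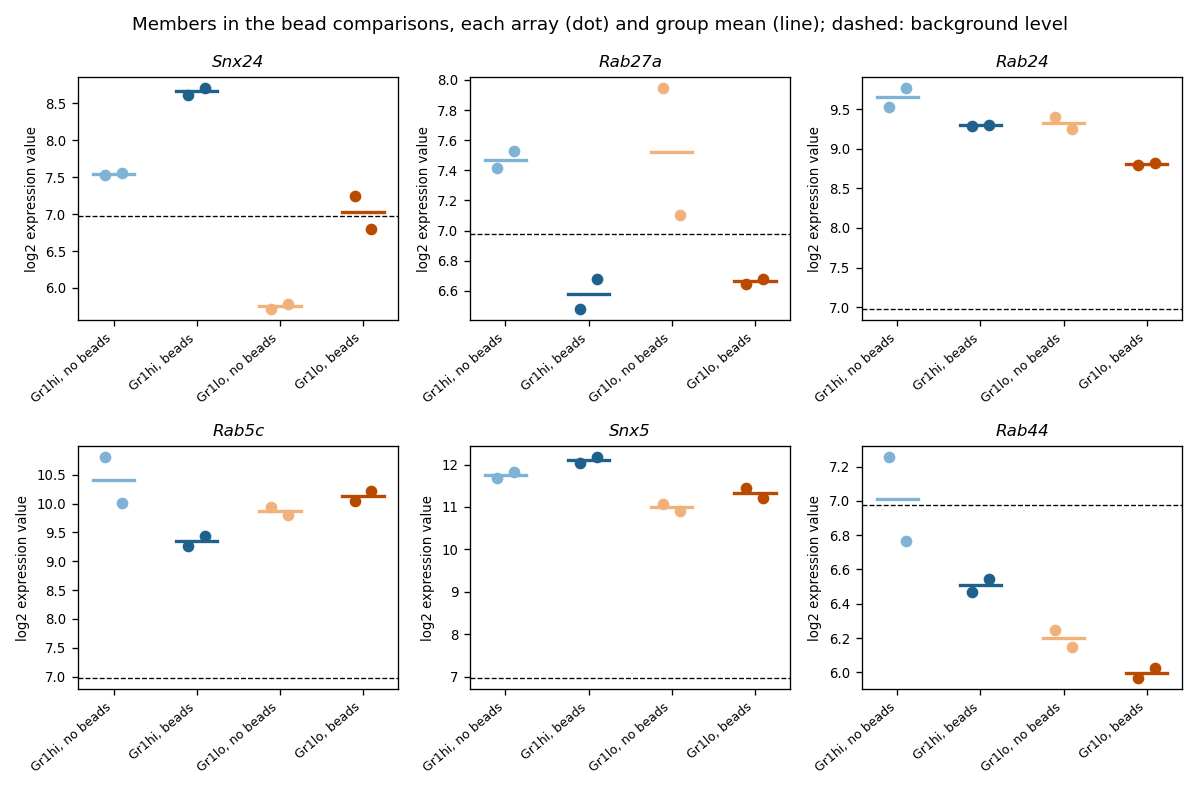
Log2 expression value on each array (dots) and group mean (lines) for 6 members in the bead comparisons; the dashed line is the background level and each panel has its own axis. Snx24 reads higher and Rab24 and Rab27a lower with beads in each subset, Rab5c lies lower with beads in Gr1hi cells alone, and the Gr1lo values of Rab44 lie below the dashed line.

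Snx5 was 0.36 ± 0.11 higher with beads in Gr1hi and 0.33 ± 0.11 in Gr1lo cells, and not called (averaged adjusted p = 0.114). Rab20 differed by 0.51 ± 0.15 with beads in Gr1hi cells (adjusted p = 0.316), Snx8 by 0.46 ± 0.14 (adjusted p = 0.328), Rab44 by -0.50 ± 0.15 (adjusted p = 0.298; -0.26 without array 1 and -0.75 without array 2 of bead-free Gr1hi cells) and Rab3d by -0.44 ± 0.13 (adjusted p = 0.31). The granule Rabs Rab44, Rab3d and Rab27a (-0.89) read lower with beads in Gr1hi cells, but the median of their class was near 0. Of its 11 members 5 had a negative difference with beads in Gr1hi cells. The median was 0.025, and -0.0018 for those above background. By limma 5 of the 11 had an unadjusted p under 0.05, in either direction, against 9.93% of all genes. The neutrophil marker mean in Gr1hi cells was 9.19 and 8.81 without and 8.48 and 8.09 with beads, and its part in these values was not tested. For Rab33b the bead differences were -0.34 ± 0.08 in Gr1hi and -0.19 ± 0.08 in Gr1lo cells (averaged adjusted p = 0.092), and Snx21 by -0.25 and -0.27 (averaged adjusted p = 0.0944).

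The difference between the bead effects of the subsets was called for 0 of 89 members by limma, against 0.044% of all genes, and 6 members had an unadjusted p under 0.05, as did 7.84% of all genes. In simulated data with known changes, this comparison recovered 1.33% of differences of 0.5 log2 units and 47.3% of those of 1 log2 unit. The 0 calls thus do not show that the bead differences were alike in both subsets. For Rab7b, where beads went with 0.35 more in Gr1hi and -0.43 in Gr1lo cells, the difference between the bead effects was -0.78. It was -1.46 (adjusted p = 0.0435) without array 2 of Gr1lo cells without beads and -0.09 (adjusted p = 0.977) without array 1 of that group. Among the partner genes Igf2r alone was called in a bead comparison. It read 6.10 and 6.03 in bead-free Gr1hi cells, 7.11 and 7.38 with beads, 7.40 and 7.43 in Gr1lo cells without beads and 7.98 and 7.86 with beads. It was higher with beads by 1.19 ± 0.11 in Gr1hi cells (adjusted p = 0.0134), where the level without beads was below background. In the average it was higher by 0.84 ± 0.07 (adjusted p = 0.00275).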

How the data were processed

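RMA normalisation and limma are named in the processing by the authors, per the submitters' processing notes. The values deposited by the authors are on a log2 scale, for 45101 probe sets on 8 arrays, and were used unchanged; the sources used here name no software version or chip definition. Per the labels' protocols, RNA was extracted with TRIzol and RNeasy, amplified and labelled with biotin.

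Probe sets with 1 symbol (34945) were kept, and 932 with more than 1, 9160 with none listed and 64 controls were left out. A table of probe names was matched by Entrez number to RefSeq (GRCm38.p6) for 34741 probe sets. Background was set at the 95th percentile of the 8-array means of 115 genes for odour, pheromone and taste receptors and keratin-associated proteins.

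A model of 4 group means used all arrays (lmFit and eBayes of limma 3.58.1, R 4.3.3; prior degrees of freedom 4.48, residual 4). P-values were two-sided and adjusted by Benjamini-Hochberg over 18193 genes, and genes were called under 0.05. SE is the moderated standard error. The small number of arrays limits precision, and p-values measure the spread between 2 arrays per group. The fit was tested on simulated data. The members, the partner and marker lists and the compartments, which come from general knowledge, were chosen with earlier results of these data known. Members named are those called in a comparison, those with the smallest p or highest mean in each compartment and the extremes of each comparison; partner genes named are among those called or with the smallest p in their class.

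Alternatives were to leave out each array in turn, to take replicate number as a block, to fit only the arrays compared, to use array weights or a robust trended prior, to centre on medians or apply cyclic loess, to average the probe sets of a gene, and to test only genes above background. A block within each subset was chosen after seeing the data. Tables and plots were made with pandas 2.3.3, numpy 2.4.6 and matplotlib 3.10.9 in Python 3.11.15.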

Additional observations from a re-analysis of the deposited data

Results flagged for a closer look

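The poly-A controls are 27 probe sets for bacterial control transcripts, picked by names for Dap, Lys, Phe, Thr or Trpn. They are used in no comparison of the members and read higher with beads. Their mean over both subsets was 9.35 with and 7.93 without beads, a difference of 1.42 log2 units that separates arrays by bead state outside the measured transcripts. In Gr1hi cells they were at 7.31 and 7.63 without and 8.82 and 9.17 with beads, and in Gr1lo cells at 8.64 and 8.13 without and 9.69 and 9.71 with beads. The part of these controls in the higher Snx24 values with beads was not tested.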

How the results depend on the processing

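The subset counts stayed within 1.5 times under every alternative, with 30 to 39, 28 to 40 and 43 to 48 members called without 1 array for cells without beads, with beads and averaged. The bead counts did not. For beads in Gr1hi cells, with 1 member called, fitting the compared arrays only gave 2 and leaving out 1 array 0 to 2. For beads in Gr1lo cells, with 1, the compared arrays only gave 0, trend and robust estimation 2, and leaving out 1 array 0 to 3 (Rab27a and Rab7b were added without array 2 of Gr1lo cells without beads). For the bead average, with 2, cyclic loess gave 1, genes above background only 5, trend and robust estimation 5, and leaving out 1 array 1 to 4. For the difference between bead effects leaving out 1 array gave 0 to 1. Over all genes, leaving out 1 array moved the bead calls in Gr1hi cells from 45 to between 0 and 58, in Gr1lo cells from 41 to between 17 and 354, in the average from 139 to between 29 and 428, and for the difference between bead effects from 8 to between 1 and 167. The median difference of members above background became -0.0273 in Gr1lo cells with against without beads and -0.0074 in the bead average under cyclic loess. For the subsets without beads (-0.13) it was -0.0345 after median centring and -0.091 to -0.2025 without 1 array. For the subsets with beads (-0.24) it was -0.17 under cyclic loess, -0.15 with all probe sets averaged, -0.17 after median centring and -0.18 to -0.24 without 1 array, and averaged over bead state -0.086 after median centring. Directions reversed for Rab7b with beads in Gr1lo cells without array 1 of the group without beads (0.26; -1.11 without array 2 of that group), and with all probe sets averaged for Rab27b (0.0021) and Rab2a (-0.0797) between subsets. The cause of these changes was not tested. Deviations of same-numbered arrays correlated at 0.36 within Gr1hi and 0.27 within Gr1lo but at -0.02 to 0.09 across subsets. With 2 arrays per group these values cannot settle whether the numbers pair arrays, over all 4 groups or within a subset. The labels give only replicate numbers. With the replicate number as a block the counts were 1, 1, 2 and 0 for the bead comparisons and 41, 42 and 51 for the subsets; the block within each subset, chosen after seeing the data, gave 5 for the bead average, adding Rab20, Rab27a and Snx5, and over all genes 102, 106 and 332 calls for the Gr1hi, Gr1lo and averaged bead comparisons, in place of 45, 41 and 139. Genes near background limit Rab39, Rab20 and Rab44.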
